A study of Danio rerio with 14 samples.

Results

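Normal development of the zebrafish eye between 5 and 8 dpf (days post fertilization) was followed in larvae that had never met a test chemical. The 6 control extracts, 3 of 8 dpf and 3 of 5 dpf, were chosen by their labels from the 12 RNA extracts on 14 two-colour arrays. Of the 8445 genes measured, 989 were called different between the ages. The control 8 dpf and control 5 dpf larvae were wild-type AB, were raised in clean water and came from mixed eggs of several breeding pairs. Those of 8 dpf had been moved to new plates with clean water at 5 dpf. Whether larvae were fed before 8 dpf is not stated in the methods. Each extract pooled the eyes of 10 larvae, and the methods name the replicates of a group as separate plates. The other 6 extracts came from larvae kept in 350 mg/L PTU (propylthiouracil, which blocks thyroid hormone synthesis) until 5 dpf, sampled then or at 8 dpf after clean water. All sampling was done in the morning, but age and day of sampling cannot be told apart.

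In a larval zebrafish eye the central retina is already layered and able to see, while stem and progenitor cells of the ciliary margin keep adding new neurons at its rim. Cone and rod photoreceptors catch light with opsins and pass the signal on through transducin and a phosphodiesterase. The lens grows by adding fibre cells filled with crystallins, and the cornea is covered by a keratin-bearing epithelium. Nearly every cell carries a circadian clock, in which Bmal and Clock proteins switch on period, cryptochrome and nr1d genes that in turn restrain them. Thyroid hormone acts through the receptors of the thra and thrb genes, and deiodinases activate or inactivate it.

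Age was compared on a chain of arrays. Only 1 array carried a control extract of each age, and 4 arrays in all joined 8 to 5 dpf. Every one of these 4 carried control 5 dpf replicate 1 or PTU 5 dpf replicate 1. Fold changes, control 8 dpf over control 5 dpf, therefore come from 1 linear model over all arrays and are given on the log2 scale with the standard error of that model (3 extracts per group). Levels of single extracts are log2 values relative to the mean of the control 5 dpf extracts, given in the order of replicates 1, 2 and 3. Such ratios say how much of the labelled eye RNA a transcript made up, not how much an eye held, and give no absolute level by which the tissue could be checked. The probes kept by the authors' filter on signal included 43 lens crystallin, 11 opsin and 38 phototransduction genes. As the eyes were measured in bulk, fewer cells of a type and less RNA per cell cannot be told apart. A gene is said to have risen or fallen only where its Benjamini-Hochberg adjusted p in limma, over all 8445 genes, was under 0.05.

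More genes fell than rose. Between control 8 dpf and control 5 dpf eyes, 394 genes rose (4.67% of those tested) and 595 fell (7.05%). These are the shares to set beside the count of each gene list below. By more than 1 on the log2 scale, 29 rose and 83 fell. The median over all genes was 0.00, and the smallest change that was called measured 0.22. Of the 394 risen genes, all 3 extracts of 8 dpf lay above all 3 of 5 dpf in 387, and of the 595 fallen genes they lay below in 577. Over all genes tested, 34.8% had extracts that did not overlap. The direct array had the sign of the model for all 394 and all 595, but it is part of that model. With the thresholds of the study, 558 transcripts (3.30% of 16913 probes) were called, 147 of them higher and 411 lower at 8 dpf.

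The number of calls rested on the linking extracts. Without control 5 dpf replicate 1, which takes away 4 arrays and 2 of the 4 that join the ages, 36 genes rose and 90 fell. Without PTU 5 dpf replicate 1 these counts were 96 and 169. No called gene changed sign when any 1 of the 12 extracts was left out, and 31 risen and 62 fallen genes were called under each of these 12 omissions. Of the 95 called genes named here, 39 were called under each omission, 52 were not called without control 5 dpf replicate 1 and 27 not without PTU 5 dpf replicate 1. Leaving out control 8 dpf replicate 1 cost 18 calls, and each of the other extracts at most 10. The 11 genes vsx1, trpm1a, cryaa, cry3b, pvalb1, fkbp5, atf3, thraa, c7b, nolc1 and nr2f1b were not called under 5 or more omissions.

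**Figure D1:**
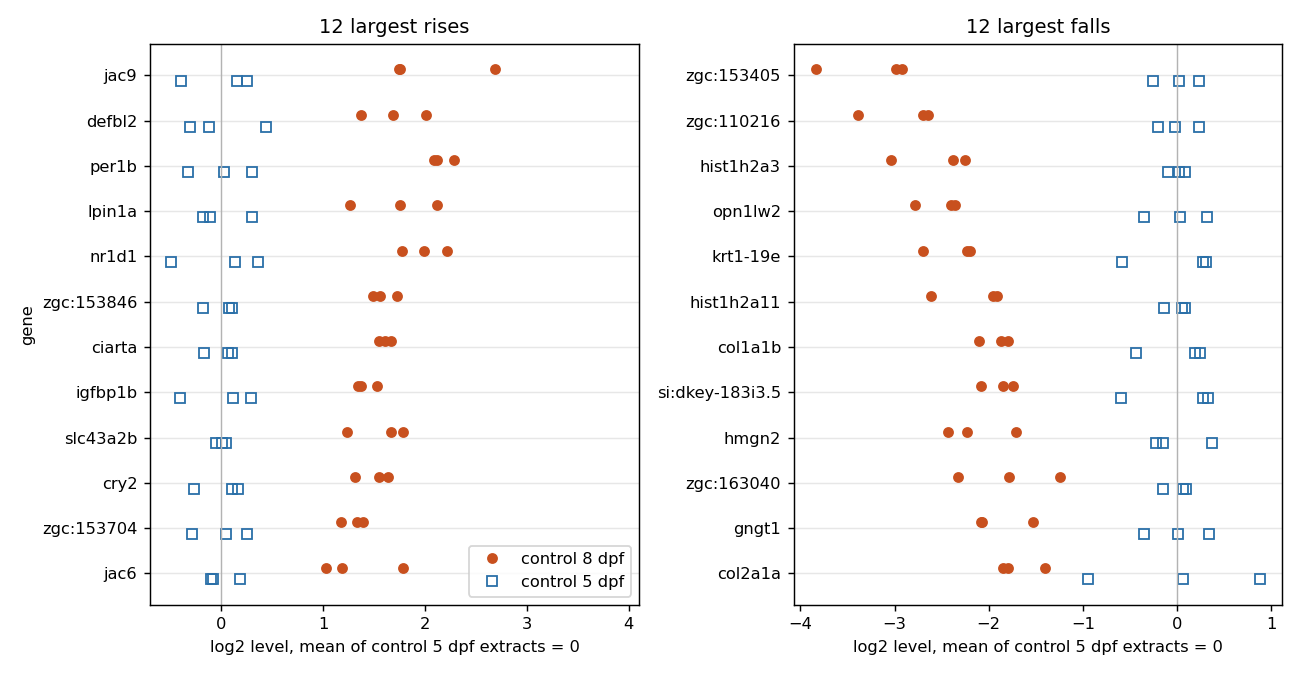
Log2 level of the 12 genes with the largest rises (left) and the 12 with the largest falls (right) in each of the 3 control 8 dpf extracts (filled circles) and the 3 control 5 dpf extracts (open squares), with the mean of control 5 dpf at 0. In every row the extracts of the 2 ages do not overlap, as the choice of these genes required; col2a1a had the widest spread among the 5 dpf extracts, from -0.95 to 0.88.

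Among the deepest falls were those of histone genes, whose products package newly made DNA. The largest fall of any named gene was that of zgc:153405, for which the RefSeq gene table gives no descriptive name. It lies 3 genes from hist1h2a5 and directly beside ano9a, and gene order does not show what it encodes. Its levels were -2.98, -2.93 and -3.84 in control 8 dpf eyes, against 0.23, -0.25 and 0.02 in control 5 dpf eyes. The 8 dpf extracts were all far below those of 5 dpf, and the fold change was -3.37 ± 0.36 (adjusted p = 5.4e-05), a 10.3-fold difference. zgc:110216, likewise without a descriptive name and a direct neighbour of hist1h2a4, changed by -3.09 ± 0.33 (adjusted p = 5.4e-05). hist1h2a3, a histone H2A gene, had levels of -2.25, -2.38 and -3.04 in control 8 dpf eyes, against 0.08, -0.10 and 0.02 in control 5 dpf eyes. Its fold change was -2.72 ± 0.28 (adjusted p = 4.22e-05), with no overlap of the ages. hist1h2a11, also an H2A gene, changed by -2.29 ± 0.22 (adjusted p = 1.91e-05), and zgc:163040, whose older name is HIST1H4, by -1.90 ± 0.39 (adjusted p = 0.00517). The call of zgc:163040 was lost without PTU 5 dpf replicate 1. Of 15 measured genes named as histones by symbol, a grouping made after the values were seen, 10 fell and 0 rose, with a median of -0.84. Near-identical histone copies may share probes, so these genes are not independent measurements. RNA had been primed from its poly(A) tail, so these falls concern histone transcripts with such a tail. They do not give the total of histone RNA.

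The list of mitosis genes had the highest share of fallen members. Of 46 genes of mitosis and chromosome segregation, 30 fell, 0 rose and 16 did not pass, with a median of -0.45. stmn1a, which encodes the microtubule regulator stathmin, had levels of -1.43, -1.46 and -1.73 in control 8 dpf eyes, against -0.20, -0.15 and 0.35 in control 5 dpf eyes. No extract of 8 dpf came near those of 5 dpf, and stmn1a fell by 1.46 ± 0.18 (adjusted p = 0.000119). hmgb2b, which encodes a chromatin protein abundant in dividing cells, had levels of -1.10, -1.07 and -1.25 in control 8 dpf eyes, against 0.05, -0.14 and 0.09 in control 5 dpf eyes and changed by -1.15 ± 0.10 (adjusted p = 1.78e-05). Each age kept to a narrow band for this gene. Outside the naming rule and chosen after their values were seen, kif11, a spindle motor, changed by -1.06 ± 0.15 (adjusted p = 0.000328) and aurkb, a mitotic kinase, by -0.99 ± 0.16 (adjusted p = 0.0014). Of the 46 mitosis genes 3 were called without control 5 dpf replicate 1, and the median of the list lay between -0.49 and -0.39 over the 12 omissions.

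DNA replication genes held further falls. Of 51 measured, 16 fell, 0 rose and 35 did not pass, with a median of -0.23. mcm2, a subunit of the replicative helicase, had levels of -0.57, -0.62 and -0.69 in control 8 dpf eyes, against 0.01, -0.09 and 0.09 in control 5 dpf eyes. The extracts of the ages were well apart and mcm2 changed by -0.68 ± 0.09 (adjusted p = 0.000186). mcm5, of the same helicase, changed by -0.86 ± 0.11 (adjusted p = 0.000188), and top2a, the topoisomerase that untangles replicated DNA, by -0.80 ± 0.09 (adjusted p = 0.0001). Only 2 of the 51 genes were called without control 5 dpf replicate 1. Among 30 histones and chromatin regulators, 15 fell and 1 rose. hmgn2, a nucleosome-binding protein, had levels of -2.44, -1.71 and -2.23 in control 8 dpf eyes, against -0.15, -0.23 and 0.37 in control 5 dpf eyes. It changed by -1.92 ± 0.23 (adjusted p = 0.000118), with 8 dpf replicate 2 the least low of the 3. The only member that rose was cbx7a, a Polycomb protein, at 1.09 ± 0.12 (adjusted p = 7e-05).

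Some retinal progenitor and early neuronal genes fell. Of 29 genes of the ciliary margin and retinal progenitors, 10 fell, 0 rose and 19 did not pass (median -0.30). her15.1, a Notch target that holds cells in the progenitor state, had levels of -0.99, -1.10 and -1.30 in control 8 dpf eyes, against 0.17, -0.14 and -0.03 in control 5 dpf eyes and changed by -1.10 ± 0.15 (adjusted p = 0.00033). insm1a, a transcription factor of newly formed neurons and photoreceptors, changed by -0.68 ± 0.09 (adjusted p = 0.000229). Both lost their call without control 5 dpf replicate 1. neurod1, a transcription factor of differentiating neurons and photoreceptors, had levels of -1.50, -1.44 and -1.32 in control 8 dpf eyes, against -0.19, -0.08 and 0.27 in control 5 dpf eyes. It changed by -1.31 ± 0.12 (adjusted p = 1.84e-05) and stayed called under each omission. tubb5, a beta tubulin, changed by -1.43 ± 0.13 (adjusted p = 1.91e-05) and likewise stayed called. Of 14 tubulin genes, grouped after their values were seen, 8 fell and 0 rose, with a median of -0.48. Of 56 genes of neurite growth and neuronal differentiation 9 fell (16.1%, against 7.05% of all genes), 0 rose and 47 did not pass. Without control 5 dpf replicate 1, 6 of the 56 were still called.

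**Figure D2:**
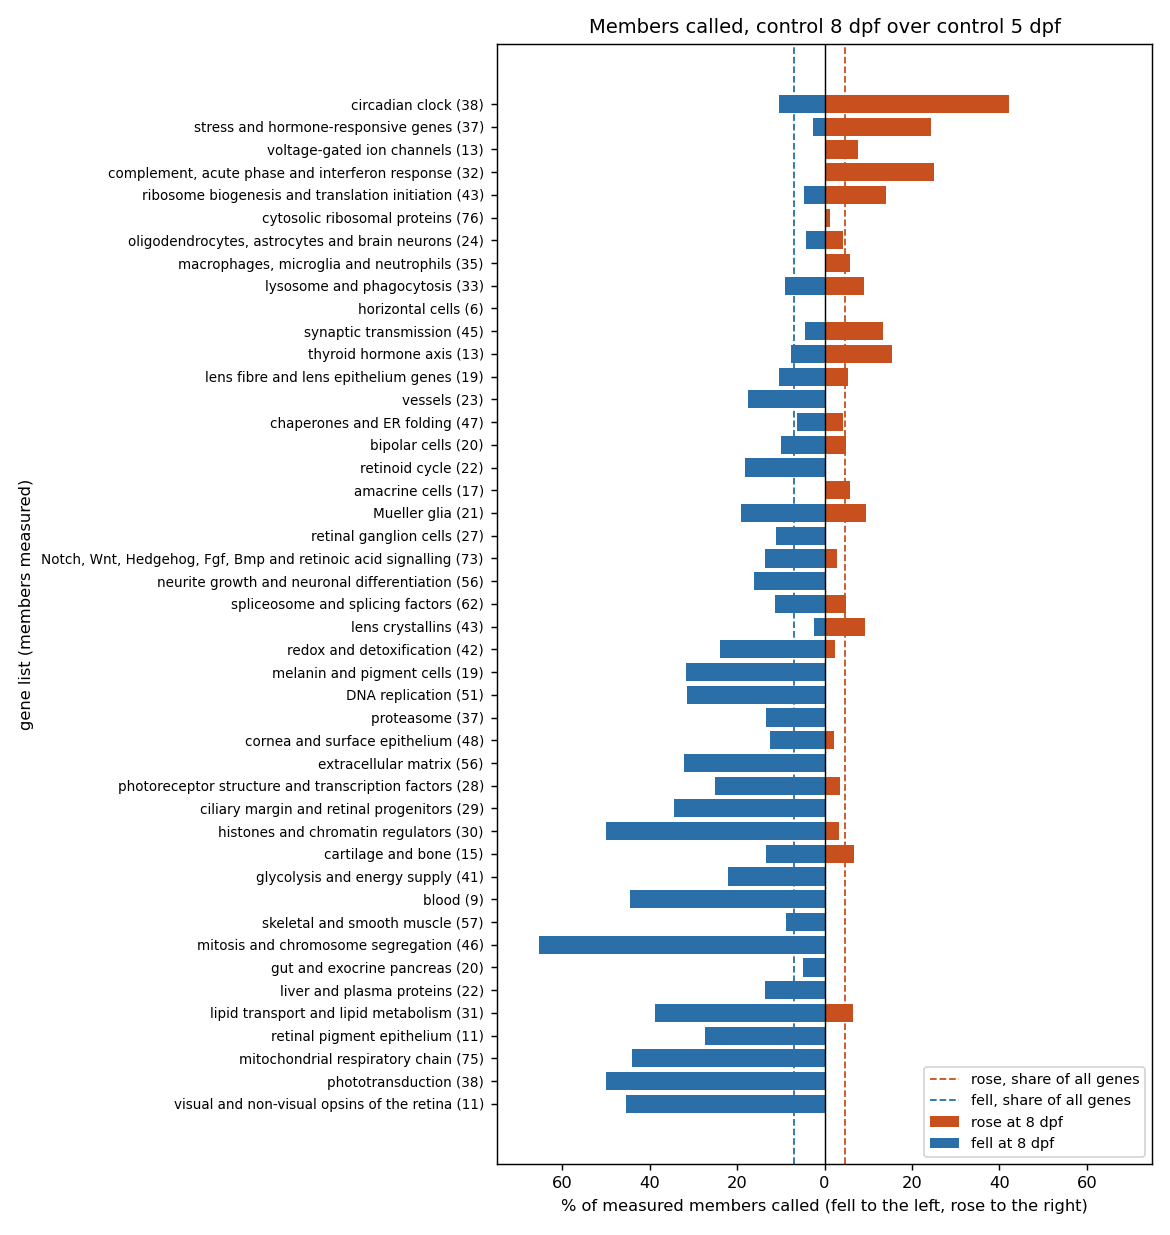
Share of the measured members of 45 gene lists that rose (bars to the right) or fell (bars to the left) in control 8 dpf over control 5 dpf eyes, in percent, with lists ordered from the highest median fold change (top) to the lowest. Dashed lines mark the share of all genes that rose (4.67%) and fell (7.05%); the mitosis list reached 65.2% fallen and the clock list 42.1% risen.

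Several opsins made up a smaller share of eye RNA at 8 dpf. Of 11 opsin genes measured, 5 fell, 0 rose and 6 did not pass, with a median of -0.79. opn1lw2, a red cone opsin, had levels of -2.78, -2.36 and -2.40 in control 8 dpf eyes, against 0.04, -0.36 and 0.32 in control 5 dpf eyes. Its extracts of 8 dpf were all far below those of 5 dpf, and it changed by -2.43 ± 0.20 (adjusted p = 1.78e-05). opn1sw1, the ultraviolet cone opsin, had levels of -2.10, -1.36 and -1.55 in control 8 dpf eyes, against 0.51, -0.49 and -0.02 in control 5 dpf eyes and changed by -1.74 ± 0.29 (adjusted p = 0.00149). The ages did not overlap, but the 5 dpf extracts were spread over 1.00 and the call was lost without control 5 dpf replicate 1. rhol, a rhodopsin-like gene, changed by -0.77 ± 0.14 (adjusted p = 0.00277). Among those outside the naming rule, opn1mw1, a green cone opsin, changed by -1.30 ± 0.30 (adjusted p = 0.0117) and opn1sw2, the blue cone opsin, by -0.94 ± 0.22 (adjusted p = 0.011). A further green cone opsin, opn1mw2, had a value of -0.79 ± 0.26 (adjusted p = 0.0609) and did not pass.

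Of 38 phototransduction genes, which act behind the opsins, 19 fell, 0 rose and 19 did not pass, with a median of -0.60, against 0.00 over all genes. gngt1, the gamma subunit of rod transducin, had levels of -2.07, -1.53 and -2.08 in control 8 dpf eyes, against 0.01, -0.35 and 0.34 in control 5 dpf eyes. It changed by -1.79 ± 0.24 (adjusted p = 0.000231), the ages being well apart. gngt2b, a gamma subunit of cone transducin, had levels of -1.82, -1.52 and -1.77 in control 8 dpf eyes, against -0.05, -0.29 and 0.34 in control 5 dpf eyes and changed by -1.63 ± 0.25 (adjusted p = 0.000651). pde6gb, an inhibitory subunit of the phosphodiesterase, changed by -1.22 ± 0.18 (adjusted p = 0.000615). The alpha subunits of transducin, named after their values were seen, changed by -1.54 ± 0.31 (adjusted p = 0.00494) for gnat1 of rods and by -0.97 ± 0.21 (adjusted p = 0.0088) for gnat2 of cones. In contrast, pde6c, the catalytic subunit of the cone phosphodiesterase, had a value of -0.13 ± 0.24 (adjusted p = 0.783) and did not pass. This gene was named outside the naming rule. Its levels were -0.05, -0.16 and 0.10 in control 8 dpf eyes, against 0.12, -0.52 and 0.40 in control 5 dpf eyes, so the ages overlapped. Only 2 of the 38 genes were called without control 5 dpf replicate 1, and the median of the list lay between -0.72 and -0.50 over the 12 omissions.

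Photoreceptor structure and the retinoid cycle were represented by fewer calls. Of 28 genes of photoreceptor structure and its transcription factors 7 fell (25%, against 7.05% of all genes) and 1 rose (median -0.29). Of 22 retinoid cycle genes 4 fell (18.2%) and 0 rose (median -0.07). rom1b, a rim protein of outer segment discs, changed by -1.16 ± 0.18 (adjusted p = 0.000651). The member that rose was nr2f1b, a nuclear receptor, at 0.42 ± 0.11 (adjusted p = 0.0245). rdh5, a retinol dehydrogenase of the pigment epithelium, had levels of -1.51, -0.94 and -1.40 in control 8 dpf eyes, against 0.64, -0.47 and -0.17 in control 5 dpf eyes. The ages did not overlap, although 5 dpf replicate 1 stood above the others, and rdh5 changed by -1.52 ± 0.25 (adjusted p = 0.00132). The call of rdh5 was lost without control 5 dpf replicate 1. rlbp1a, which carries retinal in glia and pigment epithelium, changed by -0.72 ± 0.11 (adjusted p = 0.000573), and stra6, a receptor for retinol uptake, by -0.67 ± 0.15 (adjusted p = 0.0085). In the photoreceptor lists 5 dpf replicate 2 was the lowest of its group, at a mean level of -0.27 for opsins and -0.25 for phototransduction, and the 8 dpf extracts were still lower.

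Markers of the other retinal neurons held few calls, where 4.67% of all genes rose and 7.05% fell. Of 17 amacrine cell genes 1 rose and 0 fell, and none of 6 horizontal cell genes passed. Of 27 ganglion cell genes 3 fell (11.1%, against 7.05% of all genes) and 0 rose. tubb5, described above, was 1 of the 3, and stmn2b, a stathmin of neurons, changed by -0.87 ± 0.14 (adjusted p = 0.00126). Of 20 bipolar cell genes 1 rose and 2 fell. One of these, vsx1, a transcription factor of bipolar cells, fell by 0.49 ± 0.13 (adjusted p = 0.0237). trpm1a, the cation channel of ON bipolar cells, had levels of 1.46, 1.87 and 0.45 in control 8 dpf eyes, against -0.37, -0.08 and 0.45 in control 5 dpf eyes. Replicate 3 of each age lay at 0.45, so the ages touched, and the change of 1.16 ± 0.34 (adjusted p = 0.0403) lost its call under 7 of the 12 omissions. Of 45 synaptic genes 6 rose and 2 fell, among them camk2n1a, an inhibitor of CaM kinase II, at 0.61 ± 0.15 (adjusted p = 0.0141), and gabrb2a, a GABA receptor subunit, at 0.43 ± 0.11 (adjusted p = 0.0147). None of the 6 was called without control 5 dpf replicate 1. In the list of 21 Mueller glia genes 2 rose and 4 fell. vim, the filament protein vimentin, had levels of 0.93, 1.26 and 1.06 in control 8 dpf eyes, against 0.07, 0.26 and -0.33 in control 5 dpf eyes and rose by 1.05 ± 0.18 (adjusted p = 0.00155), while fabp7a, a fatty acid binding protein of glia and progenitors, changed by -1.33 ± 0.19 (adjusted p = 0.000334).

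Single lens genes rose within a list of which most members did not pass. Of 43 crystallin genes 4 rose (9.3%, against 4.67% of all genes) and 1 fell (2.33%, against 7.05%). The other 38 did not pass, and the median was -0.17. crygm1, a gamma-M crystallin, had levels of 1.10, 1.15 and 1.05 in control 8 dpf eyes, against -0.02, 0.12 and -0.10 in control 5 dpf eyes. All 3 extracts of 8 dpf were alike and far above those of 5 dpf, at a change of 1.13 ± 0.14 (adjusted p = 0.000131). crygs4 rose by 1.11 ± 0.12 (adjusted p = 7.19e-05), crygm7 by 0.77 ± 0.13 (adjusted p = 0.00122) and cryba1l2, outside the naming rule, by 0.66 ± 0.14 (adjusted p = 0.00576). zgc:153846, which lies between the crystallin genes crygm1 and crygm2c, was among the 12 largest rises. Its levels were 1.55, 1.49 and 1.73 in control 8 dpf eyes, against 0.08, 0.10 and -0.18 in control 5 dpf eyes, and it rose by 1.60 ± 0.16 (adjusted p = 3.86e-05). grifin, a galectin-like protein of lens fibres, rose by 0.91 ± 0.16 (adjusted p = 0.00188). cryaa, an alpha crystallin and chaperone of the lens, had levels of -0.61, -0.18 and -0.63 in control 8 dpf eyes, against 0.37, -0.09 and -0.28 in control 5 dpf eyes. Its change of -0.53 ± 0.16 (adjusted p = 0.0397) lost the call under 7 of the 12 omissions. The mean level of the crystallins overlapped between the ages, with -0.30, 0.13 and -0.10 in control 8 dpf eyes and 0.10, -0.21 and 0.10 in control 5 dpf eyes.

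**Figure D3:**
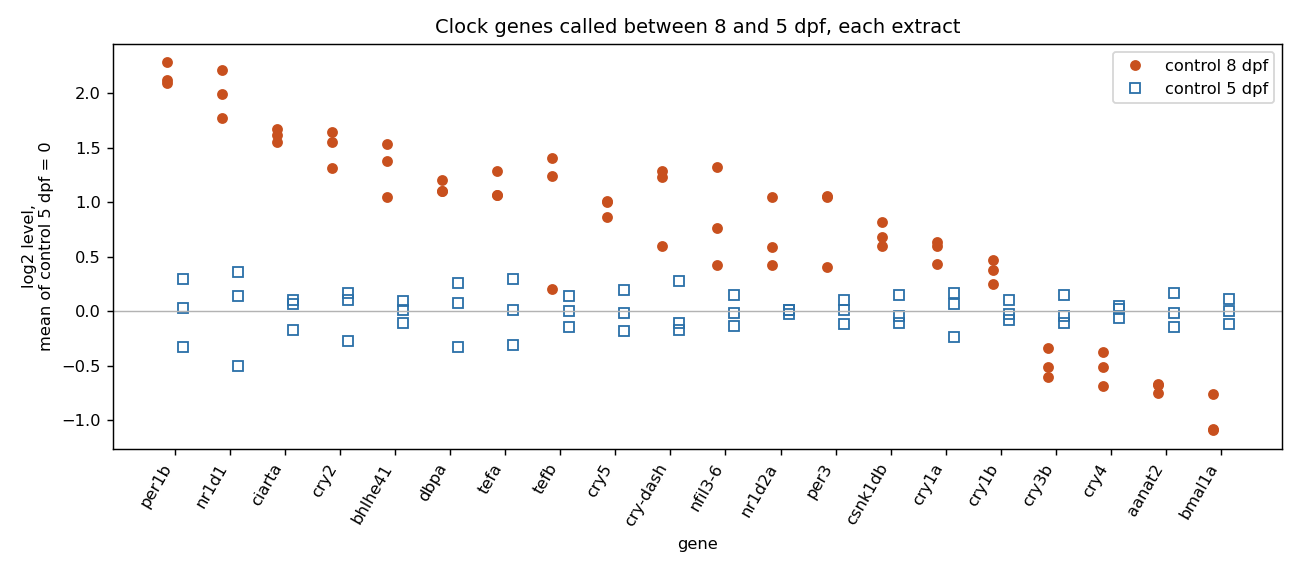
Log2 level of the 20 called clock genes in each control 8 dpf extract (filled circles, left of each position) and each control 5 dpf extract (open squares, right), with the mean of control 5 dpf at 0. The 16 genes that rose stand on the left and the 4 that fell on the right; per1b and nr1d1 reached levels of 2.28 and 2.22 at 8 dpf.

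The circadian clock held the highest share of risen genes among the lists. Of its 38 genes 16 rose and 4 fell, with a median of 0.36, and 7 rose and 1 fell without control 5 dpf replicate 1. per1b, a period gene of the negative arm, had levels of 2.09, 2.12 and 2.28 in control 8 dpf eyes, against 0.30, -0.33 and 0.03 in control 5 dpf eyes. The ages were far apart, with the 8 dpf extracts close together, and per1b rose by 1.86 ± 0.22 (adjusted p = 0.0001). nr1d1, the repressor Rev-erb alpha, had levels of 1.77, 1.99 and 2.22 in control 8 dpf eyes, against 0.36, -0.50 and 0.14 in control 5 dpf eyes and rose by 1.77 ± 0.20 (adjusted p = 8.32e-05). ciarta, another repressor of the clock, rose by 1.51 ± 0.13 (adjusted p = 1.78e-05), and cry2, a cryptochrome, had levels of 1.31, 1.55 and 1.64 in control 8 dpf eyes, against 0.17, -0.27 and 0.11 in control 5 dpf eyes and rose by 1.41 ± 0.14 (adjusted p = 3.86e-05). All of these stayed called under each omission. bmal1a, an activator of the clock, had levels of -1.07, -1.09 and -0.76 in control 8 dpf eyes, against 0.00, -0.12 and 0.12 in control 5 dpf eyes and fell by 0.89 ± 0.13 (adjusted p = 0.000564). The other 3 that fell, likewise outside the naming rule, were aanat2 at -0.64 ± 0.11, which makes the precursor of melatonin, cry4 at -0.47 ± 0.10 and cry3b at -0.41 ± 0.11. The light-induced period gene per2 had levels of 0.60, 0.09 and 0.66 in control 8 dpf eyes, against 0.03, -0.18 and 0.14 in control 5 dpf eyes, which overlapped, and a value of 0.38 ± 0.17 (adjusted p = 0.176). All larvae were sampled within a few hours of a morning, and hours of single extracts were not given in the sources used here.

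Jacalin-like and defensin-like genes were among the largest rises. jac9, a jacalin-like lectin gene, had levels of 1.74, 2.68 and 1.76 in control 8 dpf eyes, against -0.40, 0.25 and 0.15 in control 5 dpf eyes. Replicate 2 of 8 dpf was the highest, no extract overlapped, and jac9 rose by 2.17 ± 0.37 (adjusted p = 0.00174), a 4.49-fold difference, whose call was lost without control 5 dpf replicate 1. jac6 rose by 1.37 ± 0.30 (adjusted p = 0.00777). Of the 5 jacalin-like genes measured, a grouping made after the values were seen, 3 rose. Probes of such closely related genes may read one another's transcripts. defbl2, a defensin-like gene, had levels of 1.37, 1.68 and 2.01 in control 8 dpf eyes, against -0.13, -0.31 and 0.44 in control 5 dpf eyes and rose by 1.93 ± 0.24 (adjusted p = 0.000122). Of 32 genes listed under complement, acute phase and interferon response 8 rose (25%, against 4.67% of all genes) and 0 fell. The jacalin-like genes jac9 and jac6 had been put on this list and are among the 8. The list was drawn up with earlier results of these data known. Without control 5 dpf replicate 1, 0 rose and 2 fell in this list.

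Of 37 stress- and hormone-responsive genes 9 rose (24.3%, against 4.67% of all genes) and 1 fell, with a median of 0.29. The transcription factors cebpb and cebpd rose by 0.91 ± 0.19 (adjusted p = 0.00522) and 1.02 ± 0.21 (adjusted p = 0.00581). fkbp5, a cochaperone of the glucocorticoid receptor and one of its targets, was outside the naming rule and rose by 0.83 ± 0.24 (adjusted p = 0.0375). The largest rise on this list was that of klf9, which also counts on the thyroid hormone axis and is described there. The genes lpin1a, igfbp1b, slc43a2b and zgc:153704 are not on this list and were named for the size of their rises. lpin1a, a lipin that makes diacylglycerol, had levels of 1.26, 1.75 and 2.12 in control 8 dpf eyes, against -0.12, 0.30 and -0.18 in control 5 dpf eyes. It rose by 1.77 ± 0.21 (adjusted p = 8.6e-05). igfbp1b, which binds insulin-like growth factors, had levels of 1.37, 1.53 and 1.34 in control 8 dpf eyes, against -0.41, 0.29 and 0.11 in control 5 dpf eyes and rose by 1.51 ± 0.17 (adjusted p = 6.81e-05). Neither lpin1a nor igfbp1b overlapped between the ages, and both stayed called under each omission. slc43a2b, an amino acid transporter gene, rose by 1.47 ± 0.17 (adjusted p = 8.17e-05) and zgc:153704, which has no further name in the gene table, by 1.39 ± 0.19 (adjusted p = 0.000263). None of the 37 stress- and hormone-responsive genes was called without control 5 dpf replicate 1.

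On the thyroid hormone axis 2 of 13 genes rose and 1 fell (7.69%, near the 7.05% of all genes). Over all genes 4.67% rose. klf9, a transcription factor induced by thyroid hormone and by glucocorticoids, had levels of 1.02, 1.33 and 1.44 in control 8 dpf eyes, against -0.16, 0.26 and -0.09 in control 5 dpf eyes. All 8 dpf extracts stood above those of 5 dpf, and klf9 rose by 1.36 ± 0.23 (adjusted p = 0.0016). The call of klf9 was lost without control 5 dpf replicate 1. thraa, a thyroid hormone receptor alpha, had levels of 0.51, 0.55 and 0.60 in control 8 dpf eyes, against 0.12, -0.10 and -0.03 in control 5 dpf eyes and rose by 0.48 ± 0.14 (adjusted p = 0.0325), but the call was lost under 9 of the 12 omissions. The receptor thrb had levels of 0.08, -0.01 and -0.23 in control 8 dpf eyes, against 0.08, -0.23 and 0.15 in control 5 dpf eyes and a value of -0.03 ± 0.12 (adjusted p = 0.896). The ages overlapped for thrb. dio1, a deiodinase, changed by -0.41 ± 0.09 (adjusted p = 0.00663), and dio2, the activating deiodinase, had a value of 0.10 ± 0.07 (adjusted p = 0.415) and did not pass.

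Many respiratory chain genes fell. Of 75 measured, 33 fell, 0 rose and 42 did not pass, with a median of -0.53. atp5fa1, the alpha subunit of the ATP synthase, had levels of -0.81, -0.68 and -0.87 in control 8 dpf eyes, against 0.20, -0.16 and -0.05 in control 5 dpf eyes and changed by -0.82 ± 0.10 (adjusted p = 0.000132). uqcrc2a, a core protein of the cytochrome bc1 complex, had levels of -0.63, -0.55 and -0.75 in control 8 dpf eyes, against 0.02, -0.03 and 0.02 in control 5 dpf eyes. The spread within each age was small for this gene, and it changed by -0.65 ± 0.08 (adjusted p = 0.000113). ndufb4, a subunit of NADH dehydrogenase, changed by -0.68 ± 0.10 (adjusted p = 0.000373). The mean level of the list was lowest in 8 dpf replicates 3 and 1, at -0.64 and -0.57, and -0.28 in replicate 2, against 0.07, -0.12 and 0.05 in control 5 dpf eyes. The count was 1 of 75 without control 5 dpf replicate 1, and the median over the 12 omissions lay between -0.66 and -0.41.

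Other metabolic lists held fewer calls. Of 41 genes of glycolysis and energy supply 9 fell (22%, against 7.05% of all genes) and 0 rose. ckmt2a, a mitochondrial creatine kinase, had levels of -1.41, -1.31 and -1.51 in control 8 dpf eyes, against 0.34, -0.45 and 0.11 in control 5 dpf eyes and changed by -1.48 ± 0.17 (adjusted p = 9.48e-05). Of 31 lipid genes 12 fell and 2 rose. The mean level of this list was -0.60, -0.52 and -0.68 in control 8 dpf eyes, against -0.40, 0.50 and -0.10 in control 5 dpf eyes. In control 5 dpf eyes the list of liver and plasma proteins stood at -0.63, 0.46 and 0.17. The part of adhering tissue in the falls of lipid genes was not tested. fads2, a desaturase for long-chain unsaturated fatty acids, changed by -0.80 ± 0.09 (adjusted p = 8.77e-05), and hmgcs1, an enzyme of cholesterol synthesis, by -0.77 ± 0.10 (adjusted p = 0.000208). Of 42 redox and detoxification genes 10 fell (23.8%) and 1 rose, and gstp1.2, a glutathione transferase, changed by -0.89 ± 0.19 (adjusted p = 0.006).

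**Figure D4:**
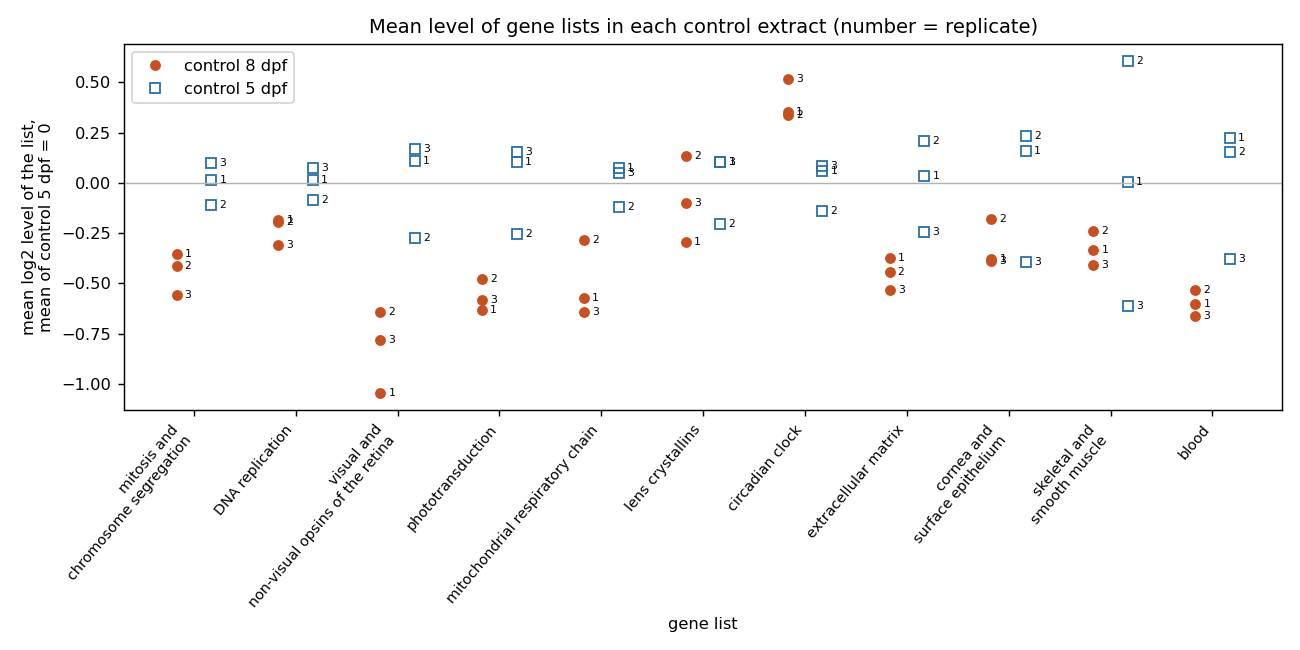
Mean log2 level of 11 gene lists in each control 8 dpf extract (filled circles, left) and each control 5 dpf extract (open squares, right), with the replicate number beside each point and the mean of control 5 dpf at 0. The ages do not overlap for the mitosis, opsin, phototransduction, respiratory chain and clock lists. They do for the lists of muscle, of cornea and surface epithelium, and of crystallins. The muscle list spread from 0.61 in replicate 2 to -0.61 in replicate 3 of control 5 dpf.

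Some genes of connective tissue, skin and blood fell as well. Of 56 extracellular matrix genes 18 fell, 0 rose and 38 did not pass, with a median of -0.26. col1a1b, a type I collagen of connective tissue and bone, had levels of -1.87, -1.80 and -2.11 in control 8 dpf eyes, against 0.20, 0.24 and -0.44 in control 5 dpf eyes. It changed by -2.02 ± 0.18 (adjusted p = 1.78e-05), and col1a2, of the same collagen, by -1.59 ± 0.16 (adjusted p = 2.6e-05). col2a1a, the collagen of cartilage and the vitreous, had levels of -1.40, -1.79 and -1.85 in control 8 dpf eyes, against 0.07, 0.88 and -0.95 in control 5 dpf eyes. The 8 dpf extracts lay close together and below every 5 dpf extract, and col2a1a changed by -1.76 ± 0.34 (adjusted p = 0.0038). However, its 5 dpf extracts were spread over 1.83, and its call was lost without control 5 dpf replicate 1. Of 48 genes of cornea and surface epithelium 6 fell (12.5%, against 7.05% of all genes), 1 rose and 41 did not pass. krt1-19e, a type I keratin, had levels of -2.20, -2.23 and -2.69 in control 8 dpf eyes, against 0.27, 0.31 and -0.58 in control 5 dpf eyes and changed by -2.42 ± 0.22 (adjusted p = 1.78e-05). krt4 and krt5 changed by -1.28 ± 0.22 (adjusted p = 0.00192) and -1.03 ± 0.18 (adjusted p = 0.00209).

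Of 9 blood genes 4 fell and 0 rose, and all 4 were embryonic globins. hbbe1.1 had levels of -1.56, -1.34 and -1.72 in control 8 dpf eyes, against 0.44, 0.44 and -0.88 in control 5 dpf eyes and changed by -1.67 ± 0.27 (adjusted p = 0.00104), and hbae1.1 changed by -1.59 ± 0.28 (adjusted p = 0.00174). Of 57 muscle genes 5 fell (8.77%, near the 7.05% of all genes) and 0 rose. pvalb1, the calcium buffer parvalbumin of muscle, had levels of -1.72, -1.19 and -1.69 in control 8 dpf eyes, against 0.02, 1.26 and -1.29 in control 5 dpf eyes. The 5 dpf extracts of pvalb1 were spread over 2.55, and its change of -1.69 ± 0.43 (adjusted p = 0.0183) lost the call under 5 of the 12 omissions.

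The mean level of the muscle list was -0.33, -0.24 and -0.41 in control 8 dpf eyes, against 0.00, 0.61 and -0.61 in control 5 dpf eyes. For the matrix list it was -0.38, -0.44 and -0.53 in control 8 dpf eyes, against 0.04, 0.21 and -0.24 in control 5 dpf eyes. The blood list averaged -0.60, -0.53 and -0.66 in control 8 dpf eyes, against 0.22, 0.16 and -0.38 in control 5 dpf eyes. Control 5 dpf replicate 3 was thus the lowest of its group in each of these lists. Without that replicate, 22 muscle, 24 matrix and 13 surface epithelium genes fell. When control 5 dpf replicate 1 was left out instead, 0 muscle, 4 matrix, 1 surface epithelium and 0 blood genes fell. The part of tissue adhering to the dissected eyeballs in these falls was not tested. Pigment cell genes fell in 6 of 19 cases, with 0 that rose. pnp4a, a purine enzyme of iridescent pigment cells, changed by -1.24 ± 0.12 (adjusted p = 3.17e-05) and dct, an enzyme of melanin synthesis, by -0.82 ± 0.16 (adjusted p = 0.00424). The call of dct was lost without control 5 dpf replicate 1. si:dkey-183i3.5, the remaining member of the 12 largest falls, has no descriptive name in the gene table and changed by -1.94 ± 0.23 (adjusted p = 0.0001).

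The age change of PTU-exposed eyes was set beside that of control eyes. The difference between them passed for 1587 genes (18.8% of those tested). Since the genes described here were called on control extracts that also enter this difference, their values are given side by side. Over the 394 risen genes the median age change was 0.24 in PTU-exposed eyes and 0.48 in control eyes. Over the 595 fallen genes it was -0.17 in PTU-exposed eyes and -0.55 in control eyes. These genes were chosen by their change in control eyes, and that choice by itself makes the control medians larger in size. The phototransduction list had a median of 0.30 in PTU-exposed eyes and -0.60 in control eyes, and the crystallins had 1.01 in PTU-exposed eyes and -0.17 in control eyes. For the mitosis list the medians were -0.26 in PTU-exposed eyes and -0.45 in control eyes, and for the clock list 0.26 in PTU-exposed eyes and 0.36 in control eyes. An age change does not give the level at which it started. In PTU 5 dpf extracts gngt1 stood at -1.43, -1.55 and -1.59 and tubb5 at 0.61, 0.77 and 0.91, relative to the mean of control 5 dpf.

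**Figure D5:**
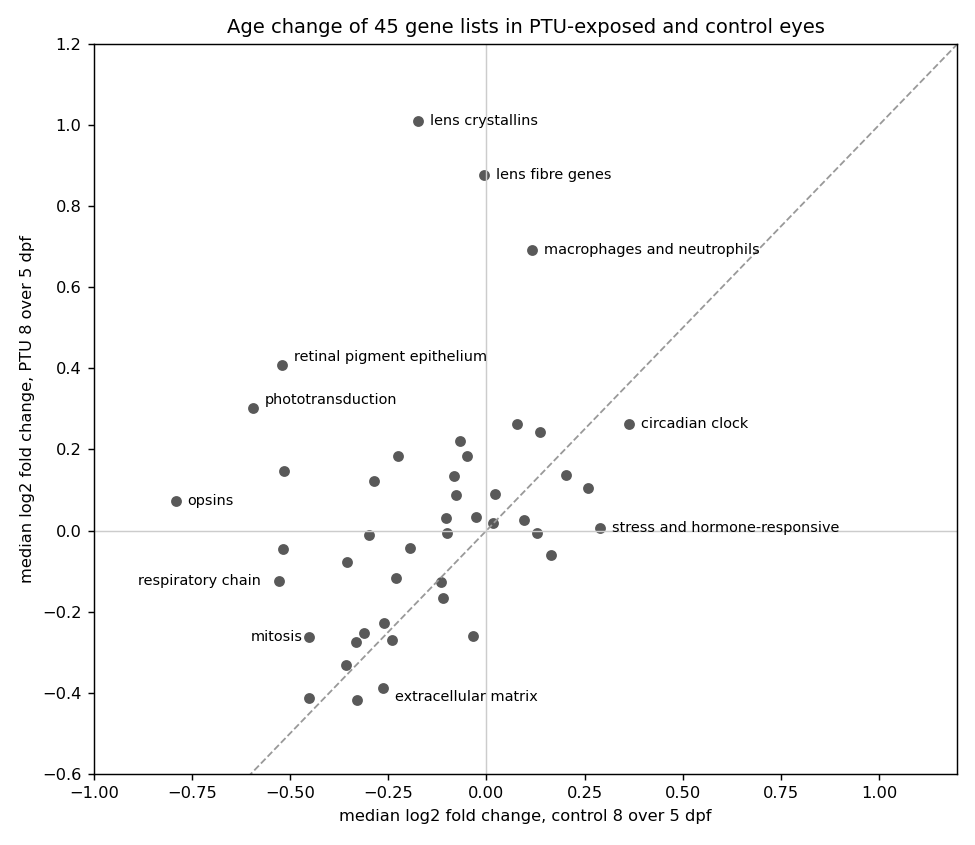
Median log2 fold change of 8 over 5 dpf for each of 45 gene lists in PTU-exposed eyes (vertical axis) against control eyes (horizontal axis), with a dashed line where both are equal. Crystallins lie highest, at 1.01 in PTU-exposed eyes and -0.17 in control eyes, and the opsins farthest left, at 0.07 in PTU-exposed eyes and -0.79 in control eyes.

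Among genes called in control eyes, the smallest p for a difference that was more positive in PTU-exposed eyes belonged to fabp4b, a fatty acid binding protein. It changed by 2.01 ± 0.15 in PTU-exposed eyes and by -0.75 ± 0.15 in control eyes, a difference of 2.77 ± 0.16 (adjusted p = 9.74e-08). otc, an enzyme of the urea cycle, changed by 0.90 ± 0.11 in PTU-exposed eyes and -0.91 ± 0.11 in control eyes. cryaa changed by 1.97 ± 0.16 in PTU-exposed eyes and -0.53 ± 0.16 in control eyes. For these genes the signs of the age changes were opposite, which does not show whether exposed and control eyes moved apart. For otc, PTU 5 dpf extracts stood at -1.33, -1.41 and -1.48, relative to the mean of control 5 dpf. sparcl1, a secreted matrix protein, changed by 1.01 ± 0.13 in PTU-exposed eyes and -0.79 ± 0.13 in control eyes, and fads2 and pnp4a completed this group.

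In the other direction the smallest p belonged to cbx7a, which changed by -0.55 ± 0.12 in PTU-exposed eyes and 1.09 ± 0.12 in control eyes, a difference of -1.64 ± 0.13 (adjusted p = 1.92e-06). atf3, a stress-induced transcription factor, changed by -1.14 ± 0.17 in PTU-exposed eyes and 0.64 ± 0.17 in control eyes. c7b, a complement component, changed by -0.82 ± 0.13 in PTU-exposed eyes and 0.54 ± 0.13 in control eyes. nr2f1b, sqstm1 (an autophagy receptor) and nolc1 (a nucleolar protein) completed this group. The age changes of krt1-19e, col2a1a and pvalb1 were -1.80 ± 0.22, -1.60 ± 0.34 and -2.46 ± 0.43 in PTU-exposed eyes, and the difference from control eyes did not pass for any of the 3 (adjusted p = 0.0779, 0.792 and 0.268). The rise of per1b was 1.52 ± 0.22 in PTU-exposed eyes and 1.86 ± 0.22 in control eyes, and that of zgc:153846 was 1.55 ± 0.16 in PTU-exposed eyes and 1.60 ± 0.16 in control eyes, and neither difference passed.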

How the data were processed

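Eye RNA of 12 extracts had been labelled with Cy5 or Cy3 and hybridised on 14 Agilent zebrafish arrays. The deposited values are log2 Cy5/Cy3 ratios. Before depositing them, the authors had removed spots that on no array exceeded background by 2 SD, then used normexp background correction and within-array loess in limma 3.34.4. The table states neither base nor direction, which were taken from the methods and dye labels. Single-channel intensities were not used here, so precision is limited by how many arrays there were.

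Of 16913 probes, 13708 were assigned to 8445 genes through RefSeq accessions or symbols of the GRCz12tu gene table, and probes of a gene were averaged. Genes were fitted with limma 3.58.1 in R 4.3.3 over all 14 arrays (11 residual degrees of freedom), with group coefficients and the RNA extract as a random effect (variance ratio of extract to array 0.138). Transcripts were fitted with arrays as independent and called at an adjusted p under 0.05 and an absolute log2 fold change over 0.75, the thresholds of the study. Adjustment of p-values followed Benjamini and Hochberg. Standard errors are those of the model, and understate the error of genes that vary between extracts by more than this shared ratio. Levels per extract came from least squares. Simulated data had normal noise and, for genes, the same variance ratio that the model then assumed, and only seeded features changed. The shares of false calls therefore do not cover genes that vary more between extracts. On these data, 58% of genes given a log2 change of 0.5 and 91% of those given 1 were recovered for the age change in control eyes (8445 genes), and 3.25% of the calls were false. For the difference between the age changes (8445 genes) 40% and 91% were recovered, with 6.43% of the calls false. For transcripts (16913 probes), at the fold threshold of the study, 1% and 87% were recovered, with 8.33% false.

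The 45 gene lists (1435 measured genes), the contrast and the naming rule were chosen with earlier results of these data known, and no set test was run. Named were the 12 largest rises and 12 largest falls among genes called with extracts that did not overlap, up to 3 members of each list with the smallest p, deiodinases and thyroid hormone receptors, and in each direction the 6 called genes for which the age change of PTU-exposed and control eyes differed at the smallest p. Called genes outside this rule are marked. The genes pde6c, per2 and opn1mw2, which did not pass, were also named outside it. Alternatives were array centring, scaling, a dye effect, arrays as independent, least-squares levels, robust moderation, a replicate block, other fold thresholds, other summaries of probes, leaving out each extract or linking array, and the direct array alone. Python 3.11.15 and matplotlib 3.10.9 were used for tables and figures.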

Additional observations from a re-analysis of the deposited data

Results flagged for a closer look

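For 75 genes named above or below, the age change of 8 over 5 dpf differed between PTU-exposed and control eyes in a test of the difference itself (adjusted p under 0.05 in limma), and this flagged them. The values are the age change in PTU-exposed eyes minus that in control eyes, on the log2 scale. Control extracts that called these genes also enter the difference, and some of the genes were named for their small p in this same test. Neither the signs nor the count of 75 is therefore independent of how the genes were chosen. Over all 8445 genes the difference passed for 1587 (18.8%), and among the 989 genes called in control eyes for 480. The count of 75 does not show how common such differences are.

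For zgc:153405 and zgc:110216, which have no descriptive name in the gene table, the difference was 2.75 and 2.42. Among genes of chromatin and division it was 2.06 for hist1h2a3, 1.79 for hist1h2a11, 1.69 for hmgn2 and 1.54 for zgc:163040. It was 1.42 for stmn1a, 0.81 for hmgb2b, 0.68 for aurkb, 0.60 for kif11, 0.52 for mcm5 and 0.40 for mcm2, and -1.64 for cbx7a. In progenitor and neuronal genes it was 1.68 for her15.1, 1.10 for neurod1, 1.04 for tubb5, 0.83 for vsx1, 0.80 for fabp7a, 0.62 for stmn2b and 0.58 for insm1a. It was -0.48 for camk2n1a, -0.73 for vim and -1.24 for nr2f1b.

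In photoreceptor genes the difference was 2.46 for gngt1, 2.09 for opn1lw2, 1.84 for gngt2b, 1.62 for pde6gb, 1.51 for rhol, 1.45 for gnat1, 1.43 for opn1sw1, 1.41 for rom1b and 0.80 for gnat2. Retinoid cycle genes had 1.65 for rdh5, 1.44 for stra6 and 0.90 for rlbp1a. In the lens it was 2.49 for cryaa, 1.47 for grifin, 1.40 for cryba1l2, 1.28 for crygm1 and -0.50 for crygs4. These differences do not give the level at which PTU-exposed eyes started. Relative to the mean of control 5 dpf, PTU 5 dpf extracts stood at -1.64, -1.76 and -2.21 for gngt2b. They stood at -2.20, -2.43 and -2.45 for opn1sw1 and at -0.42, -0.73 and -0.49 for opn1lw2.

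In clock genes the difference was 0.89 for bmal1a, 0.73 for aanat2, 0.58 for cry4 and 0.44 for cry3b, and -1.13 for ciarta, -1.02 for nr1d1 and -0.87 for cry2. Among stress, hormone and defence genes it was -1.78 for atf3, -1.36 for c7b, -1.22 for jac9, -1.15 for defbl2, -1.13 for sqstm1, -1.03 for cebpb, -0.96 for klf9, -0.83 for cebpd and -0.77 for fkbp5. In further genes it was -0.95 for lpin1a, -0.55 for igfbp1b, -1.05 for slc43a2b, -1.06 for nolc1, -0.41 for srsf11 and 0.37 for dio1.

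In the remaining genes the difference was 2.77 for fabp4b, 1.81 for otc, 1.79 for sparcl1, 1.59 for pnp4a, 1.24 for fads2, 1.02 for ckmt2a, 0.88 for dct, 0.70 for gstp1.2, 0.62 for ndufb4 and 0.44 for uqcrc2a. Matrix genes had 0.69 for col1a1b and 0.68 for col1a2, and si:dkey-183i3.5 had 0.77.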

How the results depend on the processing

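No named gene that was called reversed its sign under any alternative. Leaving out each extract in turn, the genes that rose numbered 36 to 536 and those that fell 90 to 805, against 394 and 595 in the model reported. Transcripts called higher numbered 43 to 152 and those called lower 156 to 522, and genes whose age change differed between PTU-exposed and control eyes 586 to 2091. The lowest counts of called genes and transcripts came without control 5 dpf replicate 1, which leaves 10 arrays and 2 that join the ages, and the lowest count of differences without PTU 5 dpf replicate 1. Least-squares levels of the extracts gave 605 risen genes and 644 differences. Without the direct array of control 5 dpf replicate 1 and control 8 dpf replicate 2, 196 genes rose, and 363 fell without the array that set control 8 dpf replicate 1 against PTU 5 dpf replicate 1. At changes of more than 0.75 on the log2 scale 72 genes rose and 164 fell. With no fold threshold 808 transcripts were higher and 1143 lower, and over 1 they numbered 53 and 239. Fold thresholds change counts by their construction, and for the other changes the cause was not tested. Among omissions of a single extract, the highest counts of risen and fallen genes and of differences came without PTU 8 dpf replicate 1. This extract lay farthest from its group mean (0.2 on the log2 scale, root mean square over genes). On the direct array alone, which allows no test, 32 of the 142 called genes taken by the naming rule or named in the text lay more than 1 SD of their extracts from the value of the model, among them zgc:163040 at -1.04, opn1mw1 at -0.54, opn1sw2 at -0.50, dio1 at -0.15 and trpm1a at 2.63. The replicate numbers were not taken to pair the samples. The deviations of same-numbered control extracts of 8 and 5 dpf correlated at -0.203, -0.081 and 0.117. Those of same-numbered control and PTU extracts of 8 dpf correlated at 0.627, 0.172 and -0.221. With 3 extracts per group on a shared chain of arrays, such values cannot settle whether the samples were paired. With the replicate number as a block, 272 genes rose and 422 fell, 129 transcripts were higher and 341 lower, and 1462 genes differed. The other alternatives gave counts within 1.5 times those reported. The number of arrays limits all values, and a value that did not pass does not show that the ages were alike.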

Other observations

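Over all genes tested 4.67% rose and 7.05% fell, the shares to set beside every count in this section. Genes of RNA and protein handling moved in small numbers. Of 43 genes of ribosome biogenesis and translation initiation 6 rose and 2 fell, and of 76 cytosolic ribosomal proteins 1 rose and 0 fell, with a median of 0.14. Of 62 splicing genes 3 rose and 7 fell. The splicing factor gene srsf11 had levels of 0.85, 0.71 and 0.91 in control 8 dpf eyes, against -0.03, 0.00 and 0.04 in control 5 dpf eyes, and rose by 0.81 ± 0.07 (adjusted p = 1.78e-05). Of 37 proteasome genes 5 fell and 0 rose, of 47 chaperones 2 rose and 3 fell, and of 33 lysosomal genes 3 rose and 3 fell.

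Of 73 genes of Notch, Wnt, Hedgehog, Fgf, Bmp and retinoic acid signalling, 10 fell and 2 rose. Markers of vessels fell in 4 of 23 cases, and those of the pigment epithelium in 3 of 11, with 0 that rose in either list. Of 35 genes of macrophages, microglia and neutrophils 2 rose and 0 fell, of 19 lens fibre genes 1 rose and 2 fell, and of 15 cartilage and bone genes 1 rose and 2 fell. Of 13 voltage-gated channels 1 rose, and of 24 genes of brain cells 1 rose and 1 fell. Liver and plasma protein genes fell in 3 of 22 cases and gut and pancreas genes in 1 of 20. These last counts were 7 of 22 and 5 of 20 without control 5 dpf replicate 1.

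Among the 558 transcripts called, 79 came from probes with no gene listed, 12 of them higher and 67 lower at 8 dpf, with log2 fold changes between -3.33 and 1.64.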
